A study of Mus musculus with 9 samples.

Results

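Of the 32427 gene symbols in the count files of 9 mouse kidneys, 41 belong to the nuclear complex I subunit genes. They were chosen by symbol alone: names that start with Ndufa, Ndufb, Ndufc, Ndufs or Ndufv followed by a digit, plus Ndufab1, without the Ndufaf assembly factors and without names holding -ps. The name rule uses no measured value, although earlier results of these data were known when the family was chosen. The 41 symbols hold 7 core subunits, 9 accessory subunits of the matrix arm, 9 of the proximal membrane arm and 12 of the distal membrane arm. The remaining 4 symbols are Ndufa4, whose protein is now placed in complex IV, its paralog Ndufa4l2, and the copies Ndufb4b and Ndufb11b.

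Complex I is the NADH dehydrogenase of the mitochondrial inner membrane. Its matrix arm takes electrons from NADH through a flavin and a chain of iron-sulfur clusters to ubiquinone, and its membrane arm pumps protons. The core subunits carry out catalysis and are encoded partly in the nucleus and partly in mitochondrial DNA, while the accessory subunits are all nuclear and are needed for assembly and stability. In the kidney, tubule cells that reabsorb sodium against a gradient are rich in mitochondria and depend on oxidative phosphorylation.

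Single-cell RNA sequencing was done on kidneys of male C57BL/6 mice, aged 6 weeks at the start, in 3 groups of 3 mice. Control mice received saline, AKI-CKD mice received 4 weekly intraperitoneal injections of cisplatin at 8 mg/kg, and AKI-CKD + EGT mice received the same injections with ergothioneine (EGT), a dietary thiol, at 0.5 mg/mL in the drinking water. Kidneys were taken after 8 weeks. No group received EGT without cisplatin, and each mouse gave 1 library of kidney tissue.

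The files hold 216680 cell barcodes, of which 196925 cells were kept, with 64225484 to 97584966 UMIs (unique molecular identifiers, 1 per captured RNA molecule) per mouse and a median of 2714 UMIs per cell. Barcode names are running cell numbers, of which 62337 of 98290 occur in more than 1 library, so they cannot show whether libraries share cells. Between 0.909% and 27.7% of the cells of a library were removed for a high mitochondrial share, with the highest share in AKI-CKD + EGT mouse 3 and the next highest in Control mouse 1. Clusters were named from fixed markers. They gave 156619 proximal tubule (PT) cells, 12308 distal convoluted tubule (DCT) cells, 7236 loop of Henle (LOH) cells, 2865 principal (CD-PC) and 1748 intercalated (CD-IC) cells of the collecting duct, and 7 other types of 457 to 3669 cells, while 5204 cells stayed unnamed. Without alignment of the libraries (Harmony), the only DCT cluster held 4036 cells, and the LOH clusters held 13966 and 2812. In the larger LOH cluster, 46.8% of the cells came from AKI-CKD + EGT mouse 3. The split between DCT and LOH cells thus depended on the alignment, and the order of cell types below is from the aligned clusters. Complex I genes and the other genes of oxidative phosphorylation were left out of the genes used for clustering.

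Promoter windows of 35 of the 41 members, 250 bases before to 50 bases after the transcript start, were in the RefSeq table of build GRCm38.p6 and were searched on both strands for letters bound by factors known from the control of respiratory genes. The YY1 motif AAGATGGCG was found in 5 of the 35 windows (14.3%) and in 1.40% of 32851 windows of all genes. The 5 windows were those of Ndufs7, Ndufs6, Ndufc1, Ndufs4 and Ndufa9. In each of them the motif lay on the gene's own strand within the first 50 bases after the start, with its first base at position 25, 34, 23, 36 and 30 in that order, counted from 1 at the start. The 30 bases around it are shown because of Ndufs7, Ndufs6 and Ndufc1. These 3 genes are among the 4 members with the smallest p for EGT in PT cells. Ndufs4 and Ndufa9 are not among these 4. Ndufa9 had the smallest difference with EGT of the matrix arm accessory subunits in PT cells, a log2 value of -0.22. Whether the motif is linked to the difference with EGT was not tested. Capitals mark the motif.
Ndufs7: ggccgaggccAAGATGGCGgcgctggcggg
Ndufs6: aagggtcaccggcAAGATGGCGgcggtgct
Ndufc1: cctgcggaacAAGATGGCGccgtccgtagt
Ndufs4: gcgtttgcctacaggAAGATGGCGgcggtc
Ndufa9: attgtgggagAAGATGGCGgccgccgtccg

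These sites lie in GRCm38.p6 at Ndufs7 (chr10:80249463-80249492, forward strand), Ndufs6 (chr13:73328433-73328462, reverse strand), Ndufc1 (chr3:51408914-51408943, reverse strand), Ndufs4 (chr13:114388045-114388074, reverse strand) and Ndufa9 (chr6:126849096-126849125, reverse strand). The NRF1 site GCATGCGC was in 3 windows (8.57%, against 2.71% of all), those of Ndufa11, Ndufa6 and Ndufa8, and the ERR element TNAAGGTCA was in 1 window (2.86%, against 1.28%), that of Ndufb4. The 100 bases before the start are shown for Ndufa11 and Ndufb4, with the motif in capitals, and for Ndufa3, which had the smallest p of the members against Control in PT and LOH cells and held none of the YY1, NRF1 and ERR letters.
Ndufa11: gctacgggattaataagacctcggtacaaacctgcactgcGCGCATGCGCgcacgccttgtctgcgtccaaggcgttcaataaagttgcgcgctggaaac
Ndufb4: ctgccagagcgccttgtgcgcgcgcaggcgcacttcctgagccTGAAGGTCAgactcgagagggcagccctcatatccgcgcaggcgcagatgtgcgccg
Ndufa3: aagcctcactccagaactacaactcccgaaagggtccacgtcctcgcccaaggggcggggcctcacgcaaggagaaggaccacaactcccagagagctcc

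These stretches are Ndufa11 (chr17:56717662-56717761, forward strand), Ndufb4 (chr16:37654369-37654468, reverse strand) and Ndufa3 (chr7:3617273-3617372, forward strand) in GRCm38.p6. In Ndufa11 the NRF1 letters match on both strands in 1 run of overlapping bases. The ETS core CCGGAAG was in 4 member windows (11.4%, against 8.86% of all), the TATA box TATAAA in 4 (11.4%, against 13.6%) and the CCAAT box in 10 (28.6%, against 37.4%). The median GC content was 59.0% in member windows and 52.7% in all windows. A match is a run of letters and not a bound site.

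The summed level of the 41 genes, as UMIs per 1000000 UMIs of a cell type in a mouse (CPM on plain totals), was highest in DCT cells and lowest in endothelial cells. It was 31551 ± 4637 CPM in DCT cells (SD, n = 9 mice), 30406 ± 3986 in CD-IC cells and 29437 ± 3554 in LOH cells. PT cells, the most numerous type, were at 24419 ± 2157, below cycling cells at 25741 ± 1748. CD-PC cells, which sit beside CD-IC cells in the collecting duct, were at 21377 ± 2445. Podocytes were at 21298 ± 1422 over the 7 mice with at least 20 such cells, and myofibroblasts at 20993 ± 1888. Myofibroblasts were named from markers such as Acta2, Myh11 and Rgs5, and Ren1, Acta2, Myl9 and Rgs5 led their cluster. No collagen gene was among its leading genes, so smooth muscle cells and pericytes were not told apart from myofibroblasts. The 4 lowest types were B cells, macrophages, T cells and endothelial cells, at 18755 ± 1467, 17522 ± 1344, 17070.0 ± 1257 and 17049.7 ± 1043. The top of the order was thus held by DCT, CD-IC and LOH cells, and the bottom by immune and endothelial cells.

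Neighbours in this order were often not separated within mice. DCT cells were above CD-IC cells in 7 of 9 mice, CD-IC above LOH in 8 of 9, LOH above cycling in 8 of 9 and cycling above PT in 8 of 9. PT cells were above CD-PC cells in 9 of 9 mice, with a mean difference of 3043 ± 1239 CPM (SD). CD-PC cells were above podocytes in 4 of 7 mice and podocytes above myofibroblasts in 5 of 7. Myofibroblasts were above B cells in 9 of 9 mice, B cells above macrophages in 8 of 9, macrophages above T cells in 7 of 9 and T cells above endothelial cells in 4 of 9. So CD-PC cells and podocytes, and T cells and endothelial cells, could not be ordered on plain totals. With mitochondrial, ribosomal and Malat1 UMIs left out of the denominator, T cells were at 22641 ± 1695 CPM (SD) and above endothelial cells in every mouse. Endothelial cells were then at 20297 ± 1182 and macrophages at 21630.5 ± 1429, so the order of the lowest types depended on the denominator. With Kap, a PT gene described below, left out of the denominator instead, PT cells were at 26883 ± 2027 CPM and cycling cells at 26802 ± 1466 (SD). The order of PT and cycling cells thus depended on the denominator too. The order describes clusters made from these same cells and was not tested.

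**Figure D1:**
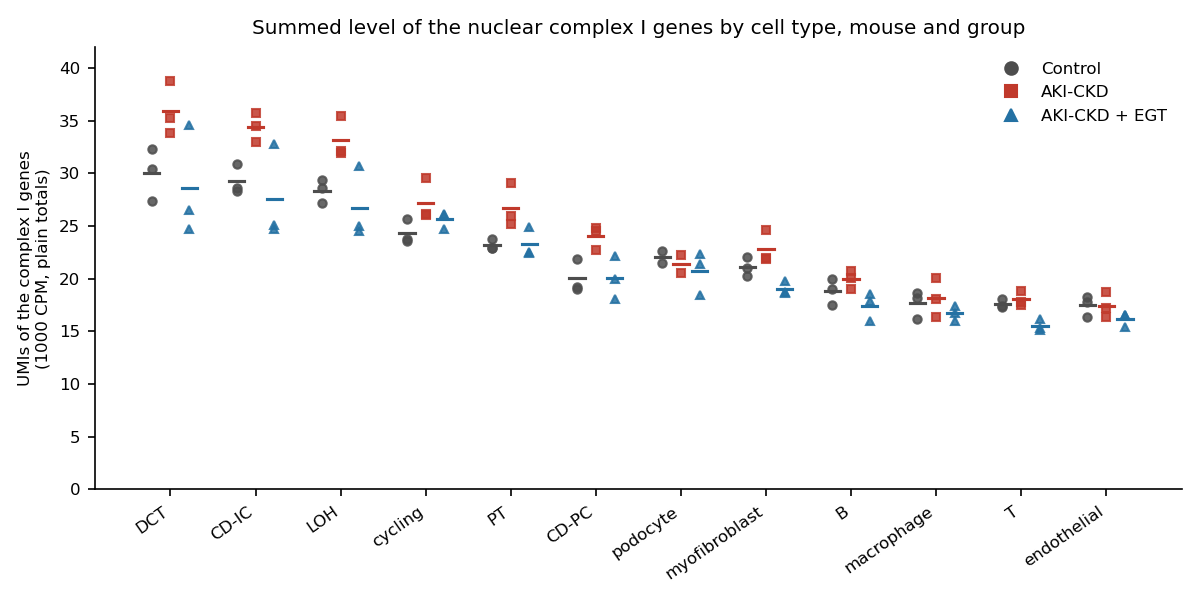
Summed level of the 41 nuclear complex I genes (y axis, units of 1000 CPM on plain totals) in 12 cell types (x axis), 1 point per mouse with a bar at the group mean. DCT, CD-IC and LOH cells lie highest, and all AKI-CKD points lie above all Control points in DCT, CD-IC, LOH, cycling, PT and CD-PC cells.

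The same pattern held gene by gene. Of the 37 complex I subunits, 18 had their highest mean level in DCT cells, 12 in CD-IC cells, 3 in LOH cells and 2 in cycling cells. Only Ndufv3, a matrix arm subunit, was highest in PT cells, at 974 CPM, and only Ndufb8, a distal membrane arm subunit, in myofibroblasts, at 973 CPM. The lowest level was in T cells for 16 subunits, in endothelial cells for 14, in macrophages for 4, in B cells for 2 and in CD-PC cells for 1, Ndufb4. The ratio of DCT to endothelial level had a median of 1.84 over the 37 subunits and ran from 1.40 for Ndufc2 to 2.36 for Ndufa1. All 37 subunits were thus higher in DCT than in endothelial cells. Kap, the PT gene named above, had a mean of 48194 CPM in DCT and 43056 in endothelial cells, against 92180 in PT cells. Levels of the other types, here and in the order above, thus include RNA of PT cells. They were not corrected for it, so the size of the ratios between types is uncertain.

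Ndufa4l2 had a pattern of its own. This paralog of Ndufa4, known from hypoxic cells and from pericytes, was at 102.7 ± 45.2 CPM in cells named myofibroblasts (SD, n = 9 mice, 45.5 to 182 per mouse). These cells held 625 of its UMIs. All barcodes together, with removed and unnamed cells, held 857. Endothelial cells followed at 1.66 ± 1.57 CPM, and all other types were at 0.302 CPM or less. Ndufb11b had 2 UMIs in all libraries and is not described further.

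Between groups, the summed level was higher in AKI-CKD than in Control in the tubule and cycling types. In DCT cells it was 27351, 30454 and 32331 CPM in the Control mice, 35283, 38809.9 and 33803 in the AKI-CKD mice and 34634, 26555 and 24739 in the AKI-CKD + EGT mice. In PT cells the Control mice were at 22893, 23798 and 22916, the AKI-CKD mice at 25196, 29055 and 25980.3 and the AKI-CKD + EGT mice at 24954, 22556 and 22424. In LOH cells the Control mice were at 27159, 28613 and 29332, the AKI-CKD mice at 32126, 35477 and 31959.8 and the AKI-CKD + EGT mice at 30705, 25033 and 24531. AKI-CKD mouse 2 was the highest and AKI-CKD + EGT mouse 3 the lowest of the 9 mice in all 3 types. The ratio of the AKI-CKD to the Control mean was 1.20 in DCT, 1.18 in CD-IC, 1.17 in LOH, 1.12 in cycling, 1.15 in PT and 1.20 in CD-PC cells, and in these 6 types all AKI-CKD mice lay above all Control mice. In podocytes, myofibroblasts, B cells, macrophages, T cells and endothelial cells the mice of both groups overlapped, with ratios between 0.971 and 1.08.

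With EGT, the ratio of the AKI-CKD + EGT to the AKI-CKD mean was 0.796 in DCT, 0.800 in CD-IC, 0.806 in LOH, 0.872 in PT and 0.835 in CD-PC cells. It was 0.835 in myofibroblasts, 0.875 in B cells and 0.862 in T cells. In cycling cells, podocytes, macrophages and endothelial cells it was 0.942, 0.968, 0.920 and 0.929, and the mice of both groups overlapped. All AKI-CKD + EGT mice lay below all AKI-CKD mice in CD-IC, LOH, PT and CD-PC cells, myofibroblasts, B cells and T cells. In DCT cells AKI-CKD + EGT mouse 1, at 34634 CPM, lay inside the AKI-CKD range. Whether these ratios differ between types was not tested.

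RNA of the proximal tubule was found in all other types and differed between the mice. Kap, an androgen-regulated gene of PT cells, was at 56535 to 123014 CPM in PT cells, 19130.3 to 72212 in DCT cells, 22055 to 74966 in LOH cells and 17470.1 to 61810.3 in endothelial cells. The 14 PT markers together were at 23148 to 80360.2 CPM in DCT and 26879 to 82426 in LOH cells. Kap in DCT cells was 72212, 67236 and 53000.1 CPM in Control, 33285, 19130.3 and 53232 in AKI-CKD and 25794, 52385 and 57470.2 in AKI-CKD + EGT mice. It was lowest in AKI-CKD mouse 2 and AKI-CKD + EGT mouse 1, the mice with the highest complex I level of their groups. With the UMIs of Kap left out of the denominator, an alternative chosen after these values were seen, the AKI-CKD to Control ratio was 1.16 in DCT, 1.13 in LOH and 1.11 in PT cells, and all AKI-CKD mice lay above all Control mice in the 6 types. The AKI-CKD + EGT to AKI-CKD ratios were then 0.804, 0.815 and 0.873, and the 3 DCT values of AKI-CKD + EGT lay below those of AKI-CKD, while these 2 groups overlapped in CD-IC and B cells. In podocytes the 2 AKI-CKD mice with enough cells then lay below the 2 such Control mice. Leaving Kap out changes the denominator only. Other free PT RNA, with any complex I UMIs in it, stays in the level, so these ratios cannot show how much it adds. The part of free PT RNA in the comparisons was thus not tested.

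Within PT cells the level differed between the 9 clusters. Cluster 0, led by Car3, Spp2 and Gatm, was highest at 28965 ± 1741 CPM (SD, n = 9 mice; 26864 to 32680.5). Cluster 5, led by Snhg11, Gm14764 and Slc5a12, was lowest at 17988 ± 2451 (14078 to 21391), and the mice of these 2 clusters did not overlap. In each of the 9 clusters all AKI-CKD mice lay above all Control mice, with ratios of the means from 1.09 in cluster 0 to 1.18 in cluster 5. All AKI-CKD + EGT mice lay below all AKI-CKD mice in 6 of the 9 clusters, and the ratio was furthest from 1 of the PT clusters in cluster 5, at 0.775. Of the DCT clusters, cluster 9, led by the sodium chloride cotransporter gene Slc12a3, Pvalb and Trpm6, was at 33687 ± 5859, and cluster 12, led by Calb1, Ltc4s and S100g, at 27879 ± 2920.3. Both had all AKI-CKD mice above all Control mice, with ratios of 1.25 and 1.12. The AKI-CKD + EGT mice overlapped the AKI-CKD mice in both, with ratios of 0.761 and 0.852. Cluster 12 held 4435 of the 12308 DCT cells, and 7 DCT markers, Slc12a3 and Pvalb among them, were raised in it. The fixed markers had no set for the connecting tubule, so DCT cells as named here may include cells of it.

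**Figure D2:**
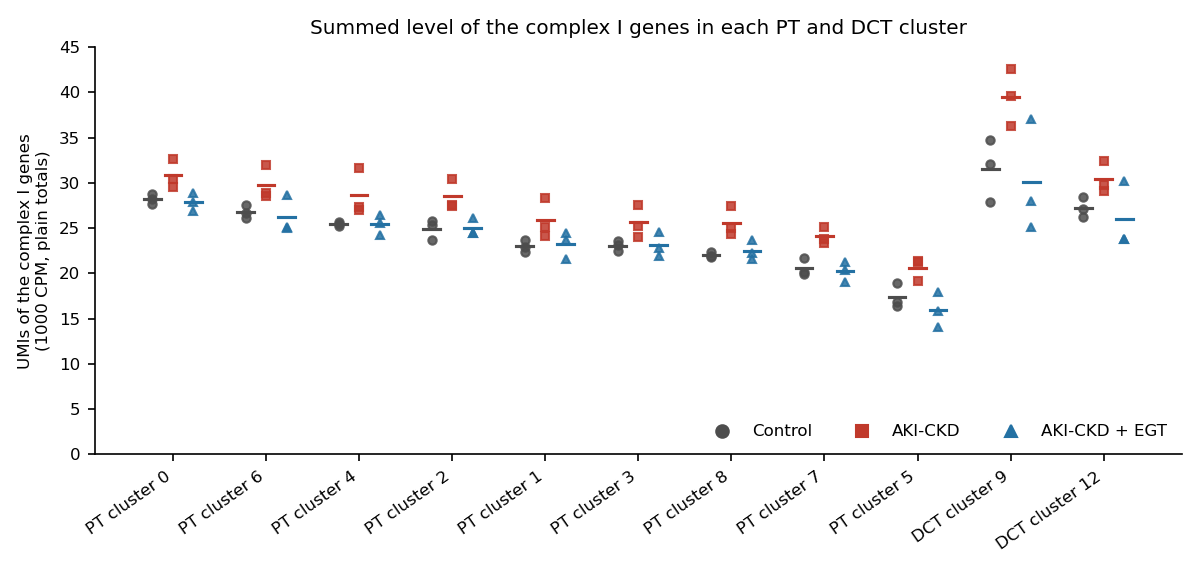
Summed level of the 41 nuclear complex I genes (y axis, units of 1000 CPM on plain totals) in the 9 PT and 2 DCT clusters (x axis), 1 point per mouse with a bar at the group mean. The AKI-CKD mice lie above the Control mice in all 11 clusters, and AKI-CKD + EGT mouse 1 lies apart from the other AKI-CKD + EGT mice in DCT cluster 9.

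For each gene, UMIs were summed per mouse in PT, DCT, LOH and all kept cells and compared by edgeR's quasi-likelihood test, with p adjusted over all genes tested. Values per gene are CPM on TMM-scaled library sizes (totals adjusted so that most genes do not differ between libraries), and fold changes are log2. In PT cells, 40 members passed the filter on low counts (all but Ndufb11b), and 39 were tested in DCT and LOH cells, where Ndufa4l2 did not pass either. No member had an adjusted p under 0.05 in any of the 3 comparisons, so that no single gene is called higher or lower by this test.

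AKI-CKD against Control asks what repeated cisplatin did to these genes. In PT cells 39 of 40 tested members had a higher mean in AKI-CKD, with a median log2 difference of 0.28 over the members and -0.014 over all 18002 genes tested. In DCT cells all 39 were higher, with a median of 0.29 (-0.016 over 11779 genes), and in LOH cells all 39, with a median of 0.21 (0.00045 over 10430 genes). On plain totals the medians were 0.18, 0.24 and 0.23, with 36 of 40 members higher in PT cells and all 39 in DCT and LOH cells. Without AKI-CKD mouse 2 the LOH median was 0.13. The smallest adjusted p by edgeR was 0.363 in PT, 0.497 in DCT and 0.181 in LOH cells, where 0.0444%, 0.0% and 0.0575% of all genes were called. The PT, DCT and LOH cells come from the same mice and are not separate evidence.

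At an unadjusted p under 0.05 by edgeR, 12 of 40 members (30%) were higher in PT cells, against 4.92% of all genes. In DCT cells 8 of 39 (20.5%) were, against 3.97%, and in LOH cells 4 of 39 (10.3%), against 6.04%. In either direction 11.1%, 8.68% and 12.1% of all genes in PT, DCT and LOH cells had such a p, so that the LOH count is near the background. All 3 AKI-CKD mice lay above all 3 Control mice for 26 of 40 members in PT cells (65.0%, against 11.5% of all genes), 24 of 39 in DCT cells (61.5%, against 8.16%) and 15 of 39 in LOH cells (38.5%, against 8.95%). Members are not independent of each other, and the counts carry no test. DESeq2 called 0 members in PT and DCT cells, where it called 1.09% and 0.0613% of the genes to which it gave an adjusted p. It called 1 in LOH cells, Ndufa3, where it called 0.848% of such genes. All DESeq2 backgrounds below are shares of such genes. Over all kept cells 39 of 40 members were higher (median 0.24), 4 at an unadjusted p under 0.05 (background 3.67%) and 24 without overlap (background 8.71%), and 0 were called by edgeR or DESeq2 (backgrounds 0.0199% and 0.536%).

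AKI-CKD + EGT against AKI-CKD asks what ergothioneine changed in cisplatin-treated mice, and it shares the AKI-CKD mice with the comparison above, so that mirrored signs are in part built in. In PT cells 38 of 40 members had a lower mean in AKI-CKD + EGT, with a median log2 difference of -0.40 (-0.0089 over all genes). In DCT cells 38 of 39 were lower, with a median of -0.41 (0.013 over all genes), and in LOH cells 36 of 39, with a median of -0.36 (0.015). On plain totals without TMM scaling, a fit added after the data were seen, these medians were -0.18, -0.31 and -0.33, with 34 of 40, 38 of 39 and 35 of 39 members lower, and the median of all PT genes was 0.22. The smallest adjusted p by edgeR was 0.236 in PT, 0.285 in DCT and 0.0735 in LOH cells, the last for Ndufb4, where 0.0%, 0.0% and 0.451% of all genes were called.

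At an unadjusted p under 0.05 by edgeR, 25 of 40 members (62.5%) were lower in PT cells, against 6.17% of all genes. In DCT cells 23 of 39 (59.0%) were, against 5.27%, and in LOH cells 19 of 39 (48.7%), against 6.98%. All 3 AKI-CKD + EGT mice lay below all 3 AKI-CKD mice for 21 of 40 members in PT cells (52.5%, against 10.9%), 20 of 39 in DCT cells (51.3%, against 8.11%) and 18 of 39 in LOH cells (46.2%, against 8.88%). DESeq2 called 9 of 40 members lower in PT cells (background 2.2%), 10 of 38 in DCT cells (4.72%) and 5 of 39 in LOH cells (1.62%). These backgrounds are over the 17960, 1739 and 7036 genes to which DESeq2 gave an adjusted p, fewer than edgeR tested in each. Ndufa2 and Ndufc1 were called in all 3 cell types. Leaving out AKI-CKD + EGT mouse 1, whose levels were nearest to AKI-CKD, brought the edgeR calls from 0 to 10 in DCT and from 0 to 5 in LOH cells, where 2.17% and 3.72% of all genes were then called, and the DCT median to -0.60. That mouse is singled out by its levels, so these calls are no separate evidence of a difference with EGT. Without the filter on low counts edgeR called 3 members in LOH cells (2.06% of all genes). Over all kept cells 38 of 40 members were lower (median -0.41), 25 at an unadjusted p under 0.05 (background 5.88%) and 24 without overlap (background 9.73%). There edgeR called 0 and DESeq2 4 members (backgrounds 0.00496% and 1.2%).

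AKI-CKD + EGT against Control gave smaller differences. The median log2 difference was -0.13 in PT, -0.10 in DCT, -0.13 in LOH and -0.17 in all kept cells, and 32 of 40, 31 of 39, 33 of 39 and 36 of 40 members were lower in AKI-CKD + EGT. Without AKI-CKD + EGT mouse 1 these medians were -0.21, -0.28, -0.23 and -0.27, and without AKI-CKD + EGT mouse 3 they were -0.019, -0.026, -0.094 and -0.053. Without AKI-CKD + EGT mouse 2 the DCT and LOH medians were -0.036 and -0.075, and without Control mouse 3 the DCT median was -0.065. At an unadjusted p under 0.05 by edgeR, 1 member was lower in PT cells (Ndufs7, background 4.02%), 0 in DCT (2.28%), 1 in LOH (Ndufa2, 2.61%) and 1 in all kept cells (Ndufs7, 4.18%). All 3 AKI-CKD + EGT mice lay below all 3 Control mice for 2 of 40 members in PT cells (5.0%, against 5.57% of all genes), 0 of 39 in DCT cells (against 4.53%), 7 of 39 in LOH cells (17.9%, against 4.92%) and 3 of 40 in all kept cells (7.5%, against 6.25%). By adjusted p, edgeR called 0 members in each (backgrounds 0.0%, 0.0%, 0.0% and 0.00496%), and DESeq2 0 as well (backgrounds 0.477%, 0.0%, 0.00859% and 0.446%). On plain totals the lower PT level was not seen: 20 of 40 members were lower, with a median of -0.0024 (0.13 over all genes), and the ratio of the summed level in AKI-CKD + EGT to that in Control was 1.00 in PT, 0.953 in DCT and 0.943 in LOH cells. In DCT and LOH cells 27 of 39 members were lower on plain totals in each, with medians of -0.050 and -0.088 (0.058 and 0.055 over all genes). A p that misses the threshold does not show that these groups had the same level.

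**Figure D3:**
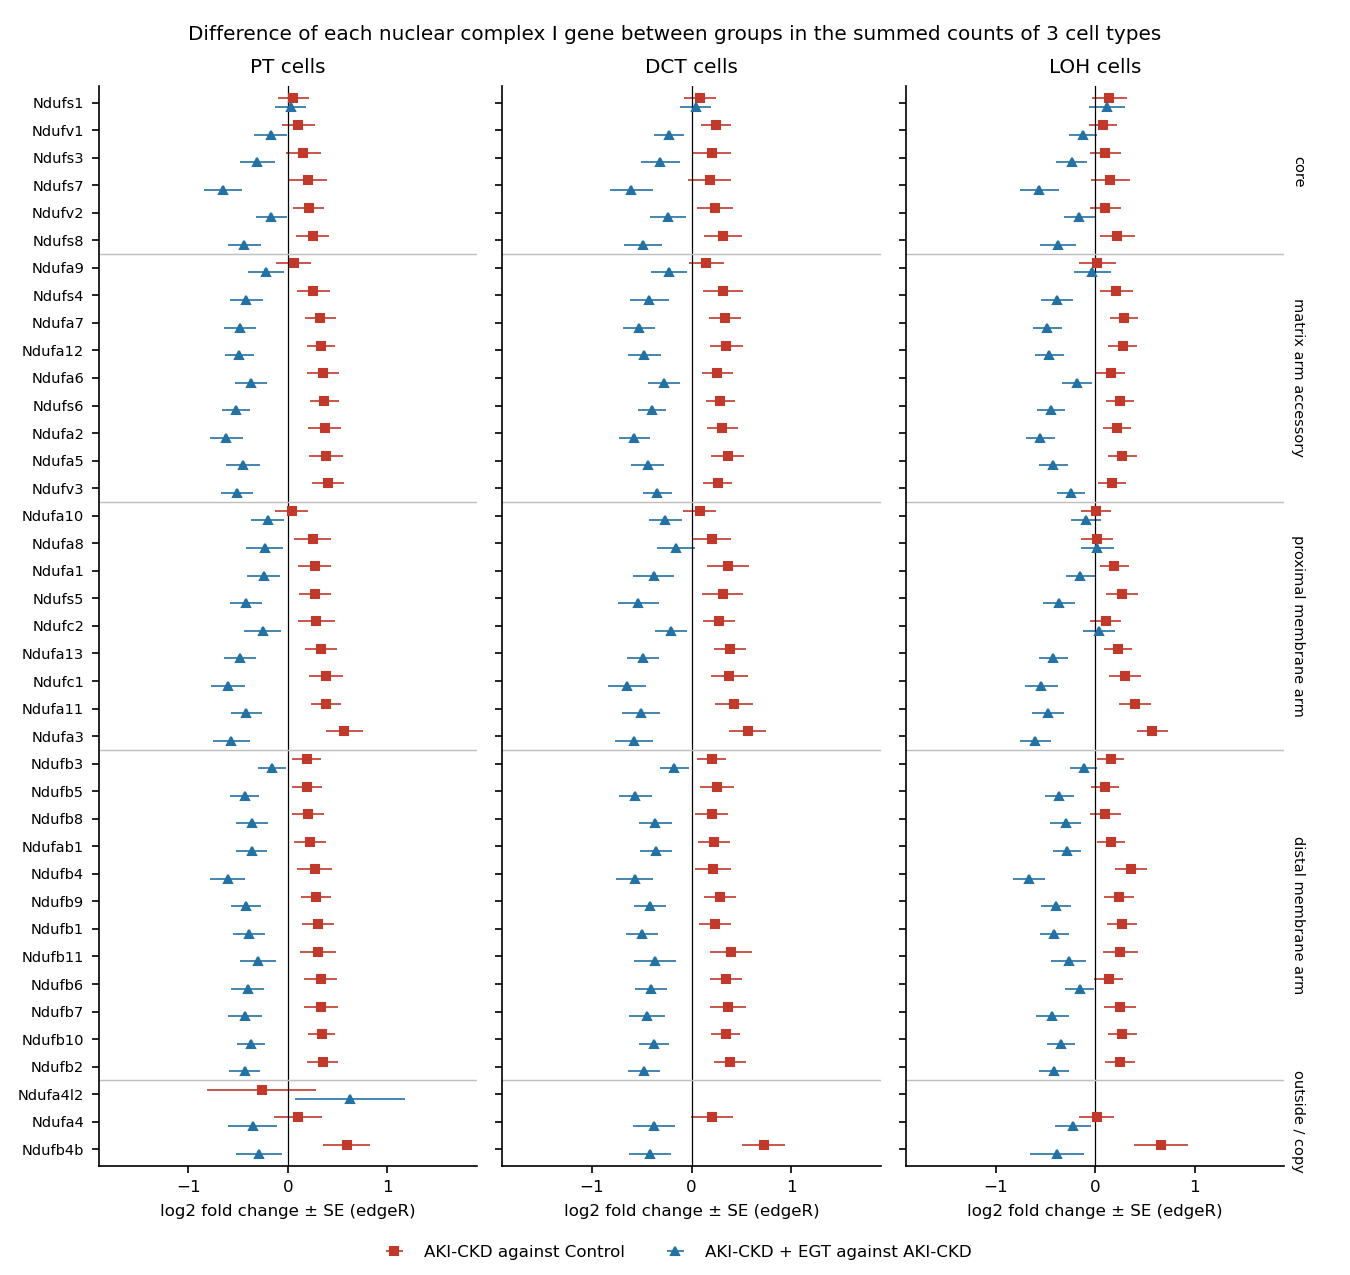
Log2 fold change of the tested members shown (x axis; points, with bars of 1 SE from edgeR) in PT, DCT and LOH cells, with genes (y axis) grouped by their place in complex I. Squares, AKI-CKD against Control, lie right of 0 for all but Ndufa4l2 in PT cells, and triangles, AKI-CKD + EGT against AKI-CKD, lie left of 0 for all subunits but Ndufs1 in PT and DCT cells and Ndufs1, Ndufa8 and Ndufc2 in LOH cells. Ndufa4l2, shown for PT cells, lies right of 0 with EGT. The plot uses TMM-scaled library sizes, and on plain totals 4 of the 40 tested members in PT cells were lower against Control and 6 higher with EGT.

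The core subunits, which bind NADH, flavin, iron-sulfur clusters and ubiquinone, had the smallest median difference of the 4 parts of the complex in each cell type for AKI-CKD against Control and for AKI-CKD + EGT against AKI-CKD, but not for AKI-CKD + EGT against Control. In PT, DCT and LOH cells the core median was 0.15, 0.20 and 0.14 for AKI-CKD against Control and -0.31, -0.31 and -0.24 for AKI-CKD + EGT against AKI-CKD. The matrix arm accessory subunits had medians of 0.35, 0.31 and 0.22, and of -0.48, -0.42 and -0.42. The proximal membrane arm had 0.28, 0.37 and 0.23, and -0.42, -0.49 and -0.36. The distal membrane arm had 0.29, 0.27 and 0.24, and -0.40, -0.41 and -0.35. On plain totals the PT medians of core, matrix arm, proximal and distal subunits were 0.068, 0.25, 0.19 and 0.20 against Control and -0.096, -0.26, -0.20 and -0.18 with EGT. Differences between parts of the complex were not tested.

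Ndufs1 encodes the largest core subunit, which carries iron-sulfur clusters of the matrix arm. Ndufs1 measured 97.0, 100.04 and 112 CPM in the Control mice, 99.4, 102 and 119 in the AKI-CKD mice and 127, 113 and 86.4 in the AKI-CKD + EGT mice in PT cells. Ndufs1 in DCT cells was 115, 115 and 130.4 CPM in the Control mice, 124, 118 and 140.4 in the AKI-CKD mice and 151, 134 and 108 in the AKI-CKD + EGT mice. Ndufs1 in LOH cells was 123, 119 and 112 CPM in the Control mice, 96.7, 139 and 152 in the AKI-CKD mice and 168, 134 and 125 in the AKI-CKD + EGT mice. AKI-CKD overlapped both other groups in all 3 cell types, all AKI-CKD + EGT mice lay above all Control mice in LOH cells alone, and AKI-CKD + EGT mouse 1 was the highest of the 9 mice in each. Ndufs1 log2 differences of AKI-CKD from Control were 0.052 ± 0.16, 0.084 ± 0.16 and 0.14 ± 0.18 in PT, DCT and LOH cells (SE), with edgeR adjusted p of 0.916, 0.897 and 0.805. Ndufs1 log2 differences of AKI-CKD + EGT from AKI-CKD were 0.027 ± 0.16, 0.041 ± 0.16 and 0.12 ± 0.18 in PT, DCT and LOH cells (SE), with edgeR adjusted p of 0.957, 0.929 and 0.805. Ndufs1 was the only complex I subunit for which the EGT group had the higher mean of the 2 cisplatin groups in all 3 cell types. The sign of this difference changed under some alternative fit in each of the 3 cell types.

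Ndufv1 encodes the subunit that holds the flavin and binds NADH. Ndufv1 measured 252, 301 and 305 CPM in the Control mice, 304, 293 and 325 in the AKI-CKD mice and 289.7, 316 and 212 in the AKI-CKD + EGT mice in PT cells. Ndufv1 in DCT cells was 308, 309 and 367 CPM in the Control mice, 374, 409 and 385 in the AKI-CKD mice and 368, 341 and 290.2 in the AKI-CKD + EGT mice. Ndufv1 in LOH cells was 348, 358 and 342 CPM in the Control mice, 348, 399 and 357 in the AKI-CKD mice and 343, 369 and 306 in the AKI-CKD + EGT mice. AKI-CKD overlapped Control in PT and LOH cells and lay above it in DCT cells, where AKI-CKD + EGT also lay below AKI-CKD without overlap. Ndufv1 log2 differences of AKI-CKD from Control were 0.11 ± 0.16, 0.25 ± 0.15 and 0.075 ± 0.14 in PT, DCT and LOH cells (SE), with edgeR adjusted p of 0.816, 0.629 and 0.881. Ndufv1 log2 differences of AKI-CKD + EGT from AKI-CKD were -0.17 ± 0.17, -0.23 ± 0.15 and -0.12 ± 0.14 in PT, DCT and LOH cells (SE), with edgeR adjusted p of 0.639, 0.533 and 0.741.

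Ndufv2 encodes the iron-sulfur subunit next to the flavin. Ndufv2 measured 331, 321 and 357 CPM in the Control mice, 366, 398 and 403 in the AKI-CKD mice and 408, 352 and 280.3 in the AKI-CKD + EGT mice in PT cells. Ndufv2 in DCT cells was 517, 459 and 643 CPM in the Control mice, 633, 683 and 595 in the AKI-CKD mice and 663, 496 and 461 in the AKI-CKD + EGT mice. Ndufv2 in LOH cells was 527, 472 and 592 CPM in the Control mice, 493, 643 and 572 in the AKI-CKD mice and 577, 491 and 466 in the AKI-CKD + EGT mice. AKI-CKD lay above Control without overlap in PT cells only, and AKI-CKD + EGT overlapped AKI-CKD in all 3 cell types through its mouse 1. Ndufv2 log2 differences of AKI-CKD from Control were 0.21 ± 0.15, 0.24 ± 0.18 and 0.10 ± 0.16 in PT, DCT and LOH cells (SE), with edgeR adjusted p of 0.602, 0.7 and 0.845. Ndufv2 log2 differences of AKI-CKD + EGT from AKI-CKD were -0.17 ± 0.15, -0.24 ± 0.18 and -0.16 ± 0.16 in PT, DCT and LOH cells (SE), with edgeR adjusted p of 0.631, 0.592 and 0.679.

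Ndufs3 encodes another core subunit of the matrix arm. Ndufs3 measured 248, 306 and 308 CPM in the Control mice, 309, 325 and 326 in the AKI-CKD mice and 319, 254 and 202 in the AKI-CKD + EGT mice in PT cells. Ndufs3 in DCT cells was 358, 415 and 478 CPM in the Control mice, 471, 519 and 450.4 in the AKI-CKD mice and 507, 346 and 306 in the AKI-CKD + EGT mice. Ndufs3 in LOH cells was 383, 419 and 425 CPM in the Control mice, 366, 518 and 432 in the AKI-CKD mice and 425, 353 and 343 in the AKI-CKD + EGT mice. AKI-CKD lay just above Control in PT cells and overlapped it in DCT and LOH cells, and AKI-CKD + EGT mouse 3 was the lowest of the 9 mice in each. Ndufs3 log2 differences of AKI-CKD from Control were 0.15 ± 0.17, 0.20 ± 0.20 and 0.10 ± 0.16 in PT, DCT and LOH cells (SE), with edgeR adjusted p of 0.74, 0.776 and 0.846. Ndufs3 log2 differences of AKI-CKD + EGT from AKI-CKD were -0.31 ± 0.17, -0.31 ± 0.20 and -0.24 ± 0.16 in PT, DCT and LOH cells (SE), with edgeR adjusted p of 0.421, 0.512 and 0.5.

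Ndufs7 holds the last iron-sulfur cluster before ubiquinone. Ndufs7 measured 399, 446 and 455 CPM in the Control mice, 463, 517 and 511 in the AKI-CKD mice and 409, 233 and 307 in the AKI-CKD + EGT mice in PT cells. Ndufs7 in DCT cells was 529.7, 570.0 and 637 CPM in the Control mice, 648, 711 and 611 in the AKI-CKD mice and 582, 287 and 428 in the AKI-CKD + EGT mice. Ndufs7 in LOH cells was 574, 589 and 552 CPM in the Control mice, 547, 739 and 615 in the AKI-CKD mice and 529.8, 281 and 482 in the AKI-CKD + EGT mice. All AKI-CKD + EGT mice lay below all AKI-CKD mice in the 3 cell types, and AKI-CKD + EGT mouse 2 was the lowest of the 9 mice in each. Ndufs7 log2 differences of AKI-CKD from Control were 0.20 ± 0.19, 0.18 ± 0.22 and 0.15 ± 0.20 in PT, DCT and LOH cells (SE), with edgeR adjusted p of 0.69, 0.818 and 0.812. Ndufs7 log2 differences of AKI-CKD + EGT from AKI-CKD were -0.65 ± 0.19, -0.60 ± 0.22 and -0.56 ± 0.20 in PT, DCT and LOH cells (SE), with edgeR adjusted p of 0.237, 0.328 and 0.187. Against Control, Ndufs7 in AKI-CKD + EGT was at a log2 difference of -0.45 ± 0.19 in PT cells (SE; unadjusted p 0.0371 and adjusted p 0.663 by edgeR).

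Ndufs8 holds the iron-sulfur clusters that pass electrons on to Ndufs7. Ndufs8 measured 326, 358 and 369.7 CPM in the Control mice, 388, 455 and 408 in the AKI-CKD mice and 383, 269 and 269.9 in the AKI-CKD + EGT mice in PT cells. Ndufs8 in DCT cells was 486, 463 and 537 CPM in the Control mice, 599.8, 688 and 559.8 in the AKI-CKD mice and 579, 347 and 390.2 in the AKI-CKD + EGT mice. Ndufs8 in LOH cells was 485, 464 and 508 CPM in the Control mice, 525, 654 and 521 in the AKI-CKD mice and 569, 343 and 407 in the AKI-CKD + EGT mice. AKI-CKD lay above Control without overlap in all 3 cell types, and AKI-CKD + EGT lay below AKI-CKD without overlap in PT cells only. Ndufs8 log2 differences of AKI-CKD from Control were 0.25 ± 0.16, 0.31 ± 0.19 and 0.22 ± 0.18 in PT, DCT and LOH cells (SE), with edgeR adjusted p of 0.563, 0.631 and 0.655. Ndufs8 log2 differences of AKI-CKD + EGT from AKI-CKD were -0.44 ± 0.16, -0.49 ± 0.19 and -0.37 ± 0.18 in PT, DCT and LOH cells (SE), with edgeR adjusted p of 0.278, 0.353 and 0.325.

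Of the 9 matrix arm accessory subunits, all were higher in AKI-CKD than in Control in each cell type, or 8 of 9 in PT cells on plain totals. In PT cells 6 of the 9 were higher at an unadjusted p under 0.05 by edgeR (4.92% of all genes were) and 8 had no overlap between the groups (11.5% of all genes). In DCT cells 1 of the 9 was higher at such a p (3.97% of all genes) and 7 had no overlap (8.16%). In LOH cells 0 were (6.04%), and 5 had no overlap (8.95%). Their PT differences ran from 0.056 (Ndufa9) to 0.40 (Ndufv3), and with EGT from -0.62 (Ndufa2) to -0.22 (Ndufa9). Ndufa2, which has a thioredoxin-like fold, had the smallest p of all members for EGT against AKI-CKD in PT and DCT cells. Ndufa2 measured 1047, 1291 and 1062 CPM in the Control mice, 1294, 1633 and 1468 in the AKI-CKD mice and 1072, 943 and 843 in the AKI-CKD + EGT mice in PT cells. Ndufa2 in DCT cells was 1376, 1431 and 1276 CPM in the Control mice, 1601, 1873 and 1584 in the AKI-CKD mice and 1279.6, 1061 and 1051 in the AKI-CKD + EGT mice. Ndufa2 in LOH cells was 1338, 1401 and 1136 CPM in the Control mice, 1486, 1609.6 and 1417 in the AKI-CKD mice and 1049, 1007 and 1027 in the AKI-CKD + EGT mice. All AKI-CKD mice lay above all Control mice and all AKI-CKD + EGT mice below all AKI-CKD mice in each cell type, and in LOH cells all AKI-CKD + EGT mice lay below all Control mice too. Ndufa2 log2 differences of AKI-CKD from Control were 0.37 ± 0.17, 0.31 ± 0.15 and 0.22 ± 0.14 in PT, DCT and LOH cells (SE), with edgeR adjusted p of 0.45, 0.577 and 0.576. Ndufa2 log2 differences of AKI-CKD + EGT from AKI-CKD were -0.62 ± 0.17, -0.58 ± 0.15 and -0.55 ± 0.14 in PT, DCT and LOH cells (SE), with edgeR adjusted p of 0.236, 0.285 and 0.0893. Against Control, Ndufa2 in AKI-CKD + EGT was at a log2 difference of -0.33 ± 0.14 in LOH cells (SE; unadjusted p 0.035 and adjusted p 0.751 by edgeR).

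Ndufs6 encodes the zinc-binding subunit of the matrix arm, and its promoter window holds the YY1 letters shown above. Ndufs6 measured 564, 639 and 575 CPM in the Control mice, 669.5, 822 and 798 in the AKI-CKD mice and 555, 556 and 482 in the AKI-CKD + EGT mice in PT cells. Ndufs6 in DCT cells was 686, 648 and 626 CPM in the Control mice, 718, 867 and 811 in the AKI-CKD mice and 644, 583 and 589.9 in the AKI-CKD + EGT mice. Ndufs6 in LOH cells was 793, 758 and 675 CPM in the Control mice, 826, 904 and 912 in the AKI-CKD mice and 652, 627 and 665 in the AKI-CKD + EGT mice. The order was the same as for Ndufa2, with all AKI-CKD + EGT mice below all Control mice in PT and LOH cells. Ndufs6 log2 differences of AKI-CKD from Control were 0.36 ± 0.14, 0.29 ± 0.14 and 0.25 ± 0.14 in PT, DCT and LOH cells (SE), with edgeR adjusted p of 0.417, 0.575 and 0.499. Ndufs6 log2 differences of AKI-CKD + EGT from AKI-CKD were -0.52 ± 0.14, -0.40 ± 0.14 and -0.44 ± 0.14 in PT, DCT and LOH cells (SE), with edgeR adjusted p of 0.237, 0.328 and 0.143.

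Ndufs4 and Ndufa12, which stabilise the NADH-binding end of the complex, and Ndufa9, which lies near the ubiquinone site, completed this part with Ndufa5, Ndufa6, Ndufa7 and Ndufv3. Ndufv3 had a PT difference of 0.40 ± 0.16 (SE; edgeR adjusted p 0.421), from a mean of 910.3 ± 41.7 CPM in Control to 1200.0 ± 109 in AKI-CKD (SD, n = 3), and 839.6 ± 136 in AKI-CKD + EGT. Ndufa9 was at 215 ± 20.5 CPM in Control and 224 ± 14.3 in AKI-CKD, groups that overlapped.

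The 9 proximal membrane arm subunits sit where the membrane arm meets the matrix arm. Their PT differences ran from 0.037 (Ndufa10) to 0.56 (Ndufa3) against Control, and from -0.60 (Ndufc1) to -0.20 (Ndufa10) with EGT. Ndufa3, a small single-span membrane subunit, had the smallest p of all members against Control in PT and LOH cells. Ndufa3 measured 614, 975 and 858 CPM in the Control mice, 1095, 1330.3 and 1192 in the AKI-CKD mice and 819, 875 and 746 in the AKI-CKD + EGT mice in PT cells. Ndufa3 in DCT cells was 780.4, 1232 and 1117 CPM in the Control mice, 1512, 1726 and 1388 in the AKI-CKD mice and 1128, 1050.1 and 923 in the AKI-CKD + EGT mice. Ndufa3 in LOH cells was 787, 1136 and 1001 CPM in the Control mice, 1529.5, 1430.4 and 1397 in the AKI-CKD mice and 980.4, 944 and 949 in the AKI-CKD + EGT mice. All AKI-CKD mice lay above all other mice in each cell type, and the AKI-CKD + EGT mice lay inside the Control range, of which Control mouse 1 was the lowest. Ndufa3 log2 differences of AKI-CKD from Control were 0.56 ± 0.19, 0.56 ± 0.19 and 0.57 ± 0.16 in PT, DCT and LOH cells (SE), with edgeR adjusted p of 0.363, 0.506 and 0.181. Ndufa3 log2 differences of AKI-CKD + EGT from AKI-CKD were -0.57 ± 0.19, -0.58 ± 0.19 and -0.60 ± 0.16 in PT, DCT and LOH cells (SE), with edgeR adjusted p of 0.251, 0.304 and 0.0871.

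Ndufa11 belongs to the Tim17 family of membrane proteins and carries the NRF1 letters shown above. Ndufa11 measured 484, 544 and 498 CPM in the Control mice, 599.9, 756 and 634 in the AKI-CKD mice and 563, 483 and 444 in the AKI-CKD + EGT mice in PT cells. Ndufa11 in DCT cells was 742, 830.3 and 891 CPM in the Control mice, 1062, 1287 and 955 in the AKI-CKD mice and 992, 661 and 668 in the AKI-CKD + EGT mice. Ndufa11 in LOH cells was 762, 771 and 729 CPM in the Control mice, 951, 1163 and 866 in the AKI-CKD mice and 839, 639.5 and 669 in the AKI-CKD + EGT mice. All AKI-CKD mice lay above all Control mice in each cell type, and AKI-CKD + EGT mouse 1 overlapped AKI-CKD in DCT cells alone. Ndufa11 log2 differences of AKI-CKD from Control were 0.38 ± 0.15, 0.42 ± 0.19 and 0.40 ± 0.16 in PT, DCT and LOH cells (SE), with edgeR adjusted p of 0.42, 0.566 and 0.341. Ndufa11 log2 differences of AKI-CKD + EGT from AKI-CKD were -0.42 ± 0.15, -0.51 ± 0.19 and -0.48 ± 0.16 in PT, DCT and LOH cells (SE), with edgeR adjusted p of 0.274, 0.34 and 0.169.

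Ndufc1, a short subunit with the YY1 letters shown above, was called with EGT by DESeq2 in all 3 cell types. Ndufc1 measured 958, 1030.3 and 915 CPM in the Control mice, 1101, 1482 and 1201 in the AKI-CKD mice and 957, 719 and 819 in the AKI-CKD + EGT mice in PT cells. Ndufc1 in DCT cells was 1361, 1436 and 1534 CPM in the Control mice, 1728, 2154 and 1757 in the AKI-CKD mice and 1513, 944 and 1134 in the AKI-CKD + EGT mice. Ndufc1 in LOH cells was 1313, 1289 and 1126 CPM in the Control mice, 1528, 1677 and 1374 in the AKI-CKD mice and 1209, 857 and 1088 in the AKI-CKD + EGT mice. All AKI-CKD mice lay above all Control mice and all AKI-CKD + EGT mice below all AKI-CKD mice in each cell type, and AKI-CKD + EGT mouse 2 was the lowest of the 9 mice. Ndufc1 log2 differences of AKI-CKD from Control were 0.38 ± 0.17, 0.38 ± 0.19 and 0.30 ± 0.16 in PT, DCT and LOH cells (SE), with edgeR adjusted p of 0.447, 0.577 and 0.484. Ndufc1 log2 differences of AKI-CKD + EGT from AKI-CKD were -0.60 ± 0.17, -0.65 ± 0.19 and -0.54 ± 0.16 in PT, DCT and LOH cells (SE), with edgeR adjusted p of 0.237, 0.285 and 0.127. Ndufa10, by contrast, had a PT mean of 349 ± 41.5 CPM in Control and 358 ± 12.5 in AKI-CKD (SD, n = 3), which overlapped. Ndufa13, also known as GRIM-19, had PT, DCT and LOH differences of 0.33, 0.39 and 0.23 against Control without overlap.

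**Figure D4:**
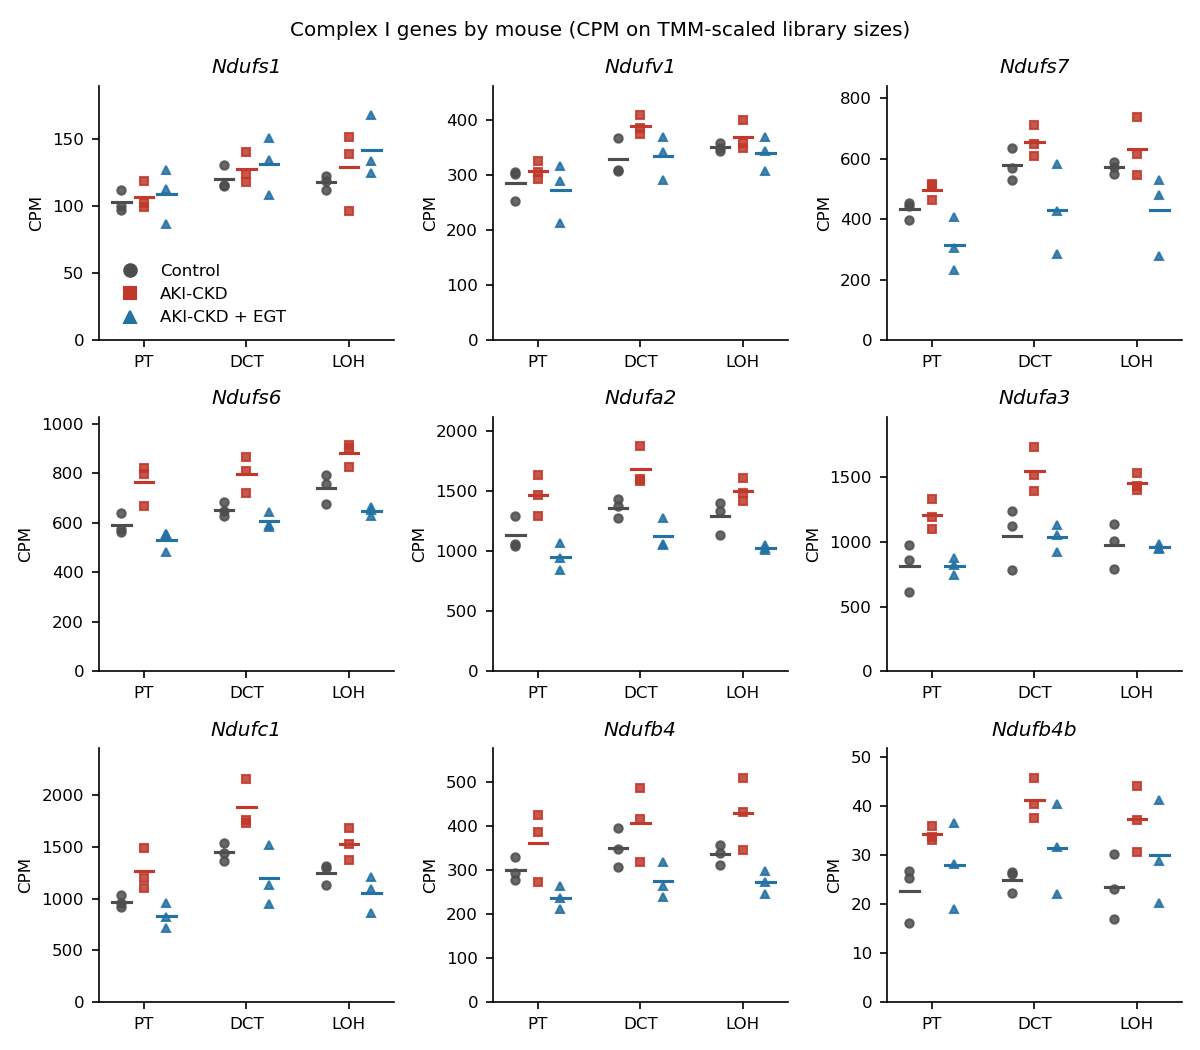
CPM on TMM-scaled library sizes (y axes) of 9 members in PT, DCT and LOH cells (x axes), 1 point per mouse with a bar at the group mean. Ndufs1 has AKI-CKD points that overlap both other groups, Ndufs7 has its lowest points in AKI-CKD + EGT, and Ndufa2, Ndufs6, Ndufa3 and Ndufc1 have all AKI-CKD points above the other groups.

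The 12 distal membrane arm subunits include Ndufab1, the mitochondrial acyl carrier protein, and were all higher in AKI-CKD in each cell type. Their PT differences ran from 0.19 (Ndufb3) to 0.35 (Ndufb2) against Control and from -0.60 (Ndufb4) to -0.16 (Ndufb3) with EGT, where 10 of the 12 had an unadjusted p under 0.05 by edgeR (6.17% of all genes were lower at such a p). Ndufb4, whose promoter window holds the ERR element shown above, had the smallest adjusted p of all members. Ndufb4 measured 278, 294 and 329.6 CPM in the Control mice, 273, 426 and 386 in the AKI-CKD mice and 264, 237 and 213 in the AKI-CKD + EGT mice in PT cells. Ndufb4 in DCT cells was 349, 308 and 396 CPM in the Control mice, 319.7, 487 and 416 in the AKI-CKD mice and 319, 239.5 and 265 in the AKI-CKD + EGT mice. Ndufb4 in LOH cells was 339, 312 and 357 CPM in the Control mice, 346, 510.4 and 432 in the AKI-CKD mice and 299.5, 245 and 273 in the AKI-CKD + EGT mice. Control and AKI-CKD overlapped through AKI-CKD mouse 1 in each cell type, while all AKI-CKD + EGT mice lay below all AKI-CKD mice, in DCT cells by less than 1 CPM, and below all Control mice in PT and LOH cells. Ndufb4 log2 differences of AKI-CKD from Control were 0.27 ± 0.18, 0.22 ± 0.19 and 0.36 ± 0.16 in PT, DCT and LOH cells (SE), with edgeR adjusted p of 0.561, 0.738 and 0.382. Ndufb4 log2 differences of AKI-CKD + EGT from AKI-CKD were -0.60 ± 0.18, -0.57 ± 0.19 and -0.66 ± 0.16 in PT, DCT and LOH cells (SE), with edgeR adjusted p of 0.237, 0.304 and 0.0735. Ndufb10 and Ndufb2 had the largest PT differences against Control of the distal subunits with no overlap, at 0.34 ± 0.14 and 0.35 ± 0.16 (SE). Ndufb3 had the smallest difference with EGT, a log2 value of -0.16 ± 0.14 in PT cells.

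Ndufa4, a subunit of cytochrome c oxidase by current assignment, overlapped between Control and AKI-CKD. Ndufa4 measured 1532, 2484 and 2160.4 CPM in the Control mice, 2149, 2180.2 and 2297 in the AKI-CKD mice and 2249.8, 1752 and 1181 in the AKI-CKD + EGT mice in PT cells. Ndufa4 in DCT cells was 2121, 2722 and 2546 CPM in the Control mice, 2925, 3009 and 2602 in the AKI-CKD mice and 2925, 2013 and 1628 in the AKI-CKD + EGT mice. Ndufa4 in LOH cells was 2081, 2791 and 2371 CPM in the Control mice, 2410.2, 2513 and 2409 in the AKI-CKD mice and 2601, 2028 and 1661 in the AKI-CKD + EGT mice. Control mice ranged more widely than AKI-CKD mice, and AKI-CKD + EGT mouse 3 was the lowest of the 9 mice in each cell type. Ndufa4 log2 differences of AKI-CKD from Control were 0.10 ± 0.25, 0.21 ± 0.21 and 0.018 ± 0.18 in PT, DCT and LOH cells (SE), with edgeR adjusted p of 0.892, 0.788 and 0.981. Ndufa4 log2 differences of AKI-CKD + EGT from AKI-CKD were -0.35 ± 0.25, -0.38 ± 0.21 and -0.22 ± 0.18 in PT, DCT and LOH cells (SE), with edgeR adjusted p of 0.512, 0.47 and 0.588.

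Ndufb4b is a copy of Ndufb4, so that reads may be split between them and its low counts are uncertain. Ndufb4b measured 16.2, 26.9 and 25.4 CPM in the Control mice, 33.8, 36.0 and 33.2 in the AKI-CKD mice and 36.6, 28.2 and 19.2 in the AKI-CKD + EGT mice in PT cells. Ndufb4b in DCT cells was 22.4, 26.1 and 26.6 CPM in the Control mice, 45.7, 40.5 and 37.6 in the AKI-CKD mice and 40.6, 31.7 and 22.1 in the AKI-CKD + EGT mice. Ndufb4b in LOH cells was 17.01, 30.3 and 23.2 CPM in the Control mice, 44.1, 37.2 and 30.7 in the AKI-CKD mice and 41.4, 28.9 and 20.3 in the AKI-CKD + EGT mice. All AKI-CKD mice lay above all Control mice in each cell type, and AKI-CKD + EGT overlapped both groups. Ndufb4b log2 differences of AKI-CKD from Control were 0.59 ± 0.23, 0.73 ± 0.22 and 0.66 ± 0.27 in PT, DCT and LOH cells (SE), with edgeR adjusted p of 0.417, 0.497 and 0.357. Ndufb4b log2 differences of AKI-CKD + EGT from AKI-CKD were -0.29 ± 0.23, -0.41 ± 0.21 and -0.38 ± 0.27 in PT, DCT and LOH cells (SE), with edgeR adjusted p of 0.567, 0.433 and 0.534. Ndufa4l2 in PT cells was 0.439, 0.103 and 0.186 CPM in Control, 0.284, 0.110 and 0.199 in AKI-CKD and 0.311, 0.259 and 0.366 in AKI-CKD + EGT mice, from 148 UMIs in all. Its PT log2 differences were -0.26 ± 0.55 against Control and 0.62 ± 0.55 with EGT (SE; edgeR adjusted p 0.87 and 0.611).

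The 7 complex I subunits encoded in mitochondrial DNA, mt-Nd1 to mt-Nd6 and mt-Nd4l, ran the other way. In AKI-CKD against Control 0 of 7 were higher in PT, DCT and LOH cells, with medians of -0.59, -0.84 and -0.93, and with EGT 7 of 7 were higher than in AKI-CKD, with medians of 0.68, 1.13 and 1.22. Their summed level in PT cells was 17001, 9548 and 3967 CPM in Control, 8225, 6305 and 4717 in AKI-CKD and 8468, 10953 and 13948 in AKI-CKD + EGT mice. The AKI-CKD mice thus lay inside the Control range, which spanned Control mouse 1 to Control mouse 3. The mitochondrial share of UMIs, on which cells were filtered, was highest in the libraries of AKI-CKD + EGT mouse 3 and Control mouse 1, at 9.28% and 8.20% of UMIs in cells past the UMI and gene minimums and before the mitochondrial limit, and lowest in Control mouse 3, at 1.69%. Only mt-Nd6, the subunit gene on the light strand, passed the test, in LOH cells with EGT. mt-Nd6 in LOH cells was 30.9, 14.1 and 12.7 CPM in Control, 9.39, 10.1 and 8.69 in AKI-CKD and 28.8, 27.0 and 39.2 in AKI-CKD + EGT mice, and rose with EGT by 1.78 ± 0.34 on the log2 scale (SE; edgeR adjusted p 0.0289).

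The 19 complex I assembly factors build the complex without staying in it, and their difference from the subunits was not tested. In PT, DCT and LOH cells 14, 11 and 9 of 19 were higher in AKI-CKD than in Control, with medians of 0.10, 0.031 and -0.0069. With EGT 19, 11 and 13 of 19 were lower than in AKI-CKD, with medians of -0.22, -0.064 and -0.18. On plain totals the PT medians were 0.0073 and 0.010, with 10 of 19 higher in each comparison, so that the sign with EGT depended on the scaling. In DCT cells these medians were -0.017 and 0.036, and in LOH cells 0.010 and -0.16. Ndufaf3 had the largest positive difference against Control in each cell type, at 0.34 ± 0.15, 0.45 ± 0.15 and 0.47 ± 0.14 (SE; edgeR adjusted p 0.443, 0.506 and 0.234). Acad9 had the opposite sign, at -0.21, -0.50 and -0.40. No assembly factor passed the adjusted test.

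Most subunit genes of complexes II to V had differences of the same sign as the nuclear complex I genes. Of 45 such genes tested in PT cells, 42 were higher in AKI-CKD than in Control and 43 lower with EGT than without, with medians of 0.34 and -0.36. The cytosolic ribosomal protein genes, which have no role in respiration, did so too: of 80 tested in PT cells, 79 were higher and then 80 lower, with medians of 0.39 and -0.46. In DCT and LOH cells the ribosomal medians were 0.24 and 0.25 against Control, and -0.32 and -0.35 with EGT. So ribosomal protein genes and complexes II to V shared the direction of the nuclear complex I genes in these libraries. On plain totals 37 of 45 and 79 of 80 were higher against Control in PT cells, and 37 of 45 and 78 of 80 lower with EGT. The PT medians were then 0.25 and 0.30 against Control, and nearer to zero with EGT, at -0.15 and -0.24. In LOH cells with EGT, edgeR called 1 gene of each list (1 of 43 and 1 of 80 tested, where 0.451% of all genes were called), Uqcr11 of complex III (-0.71 ± 0.15, SE; adjusted p 0.0473) and Rps28 (-0.84 ± 0.16; adjusted p 0.0289), both chosen for naming after their values were seen. With mitochondrial, ribosomal and Malat1 UMIs left out of the denominator, the AKI-CKD to Control ratio of the summed complex I level was 1.16 in PT, 1.18 in DCT and 1.17 in LOH cells. The mice of both groups then overlapped in cycling cells, while all AKI-CKD mice lay above all Control mice in myofibroblasts, B cells and T cells.

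**Figure D5:**
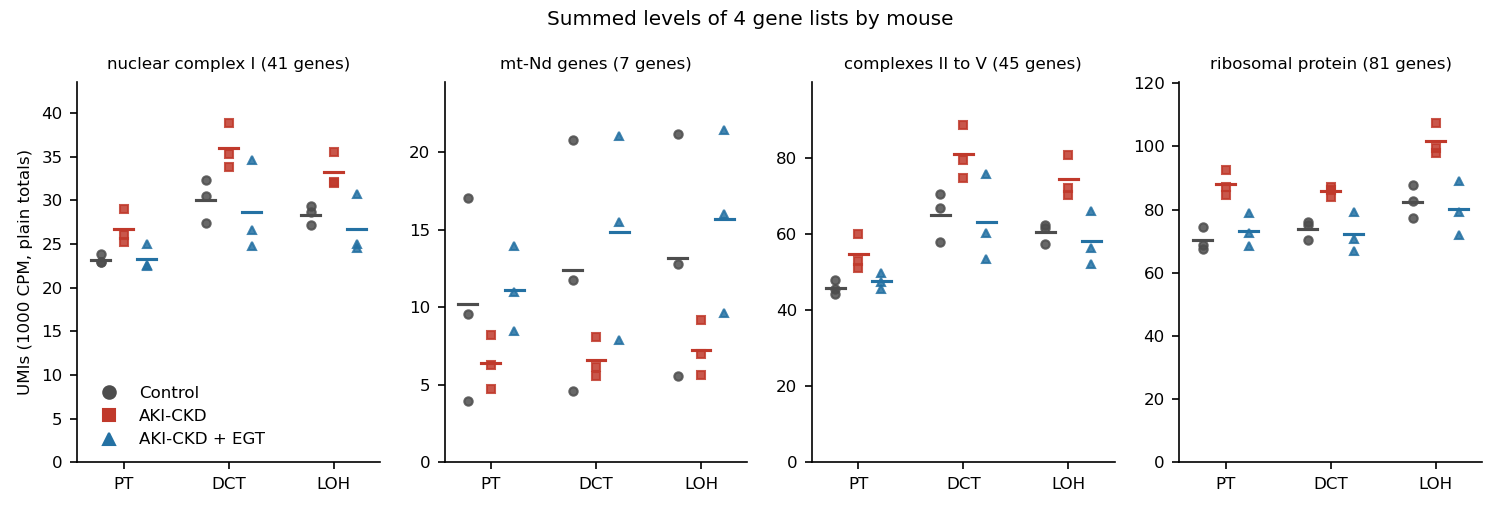
Summed level (y axes, units of 1000 CPM on plain totals) of 4 gene lists in PT, DCT and LOH cells (x axes), 1 point per mouse with a bar at the group mean. The nuclear complex I, complex II to V and ribosomal protein lists have all AKI-CKD points above all Control points, while the AKI-CKD points of the mitochondrially encoded mt-Nd genes lie inside the wide Control range.

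Of the 10 regulators of mitochondrial biogenesis, none passed the adjusted test, with PT, DCT and LOH medians of -0.027, -0.21 and -0.014 against Control and -0.038, 0.048 and 0.027 with EGT. On plain totals the PT medians were -0.12 and 0.18, so that the sign with EGT depended on the scaling. Esrra, which encodes the nuclear receptor ERR alpha that binds the element searched above, was 141, 154 and 132 CPM in Control, 174, 222 and 187 in AKI-CKD and 191, 190.0 and 176 in AKI-CKD + EGT PT cells. All cisplatin-treated mice lay above all Control mice, and the AKI-CKD + EGT mice overlapped the AKI-CKD mice. Esrra differed by 0.45 ± 0.13 against Control in PT cells (SE; unadjusted p 0.00671 and adjusted p 0.35 by edgeR), 0.33 ± 0.14 in DCT and 0.32 ± 0.14 in LOH cells, and by -0.068 ± 0.13 with EGT in PT cells. Its coactivator gene Ppargc1a was 137, 193 and 163 CPM in Control, 127, 132 and 123 in AKI-CKD and 125, 117 and 133 in AKI-CKD + EGT DCT cells. Ppargc1a in AKI-CKD lay below Control there, with a log2 difference of -0.37 ± 0.15 (SE; unadjusted p 0.0341 and adjusted p 0.553 by edgeR). At an unadjusted p under 0.05 by edgeR in either direction were 8.68% of all genes in DCT and 11.1% in PT cells. For Ppargc1a, Control and AKI-CKD overlapped in PT cells (57.1, 52.5 and 47.4 against 47.9, 38.8 and 44.3 CPM). They overlapped in LOH cells too (116, 165 and 222 against 174, 115 and 135 CPM).

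Nuclear-retained RNAs and genes of cell handling were read as well, and neither list was tested as a group. The 3 nuclear-retained RNAs tested, among them Malat1, had PT, DCT and LOH medians of -0.62, -0.55 and -0.42 in AKI-CKD against Control and of 0.77, 1.05 and 0.86 with EGT. Against Control 0 of 3 were higher in PT and DCT cells and 1 of 3 in LOH cells, and with EGT 3 of 3 were higher in each. The 12 immediate early and heat shock genes, which respond to tissue dissociation, had medians of 0.17, 0.21 and 0.25 against Control and of 0.061, -0.48 and -0.41 with EGT. Against Control 8, 11 and 11 of the 12 were higher, and with EGT 7, 0 and 1. The PT medians on plain totals were 0.058 against Control and 0.32 with EGT, with 7 and 9 of the 12 higher. Of these genes edgeR called Hspa1a alone, which fell with EGT in LOH cells, with a log2 difference of -1.44 ± 0.28 (SE; adjusted p 0.0334), and it is named after its value was seen. The part of these lists in the complex I differences was not tested.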

How the data were processed

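Single-cell RNA sequencing libraries (DNBelab C-TaiM4 droplets, 1 kidney library per mouse) of 3 Control, 3 AKI-CKD and 3 AKI-CKD + EGT mice were analysed. The deposited files hold raw UMI counts per gene and cell, made by the authors with PISA v1.0 per the file headers on build GRCm39. Groups come from the sample labels, and each mouse is 1 replicate. Following the limits in the study's methods, a cell was kept if it held 1000 UMIs or more from 500 genes or more and if mitochondrial transcripts made up no more than 15% of its UMIs. These limits left more cells than the study states.

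Counts were scaled to 10000 per cell and reduced to 30 components of 2000 variable genes. Complex I, other oxidative phosphorylation, assembly factor, ribosomal and mitochondrially encoded genes were left out of the variable genes. Libraries were aligned with a numpy version of Harmony and clustered at resolution 1.1 (scanpy 1.11.5, numpy 2.4.6). A cluster was named where at least 3 markers of a type were 1.5 times higher than in the other cells. That fold was lowered after the clusters were seen, and 2 clusters (4851 and 353 cells) stayed unnamed, the first led by haemoglobin genes with 46.1% of its cells from Control mouse 3. No doublet caller was run; leaving out the 5% deepest cells of each library was an alternative.

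UMIs were summed per mouse in PT, DCT, LOH and all kept cells and tested with edgeR 4.0.16 (R 4.3.3; TMM, filterByExpr, quasi-likelihood, all 9 mice in 1 fit, Benjamini-Hochberg over all genes tested), with DESeq2 1.42.0 as an alternative. The fitting script was tested on simulated data. Summed levels are UMIs per 1000000 UMIs of the cell type, on plain totals. Promoter windows are from RefSeq, build GRCm38.p6, and no coordinates of the count files were used.

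The members and gene lists were chosen with earlier results of these data known. Values in every mouse are given for the 7 core subunits except 1 that is not reported here, the 2 members with the smallest p and the 1 with the largest difference against the majority in each cell type and comparison, and the symbols outside complex I or copies of a member.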

Additional observations from a re-analysis of the deposited data

How the results depend on the processing

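The median log2 difference of the complex I genes kept its direction in all 3 comparisons and all 4 populations under every alternative fit run: RLE size factors, no filter on low counts, DESeq2, other mitochondrial limits, clusters without Harmony, without the deepest cells, a fit of only the 6 mice compared, library sizes without mitochondrial, ribosomal and Malat1 counts, a replicate block, and each mouse left out. On plain totals without TMM factors, an alternative chosen after seeing the data, the direction was kept as well but the medians with EGT were -0.18 in PT and all kept cells, and for AKI-CKD + EGT against Control -0.0024 in PT and -0.012 in all kept cells, where 20 of 40 and 21 of 40 members were lower. The counts of called members depended on the setting. For AKI-CKD + EGT against AKI-CKD, DESeq2 called 9 members in PT, 10 in DCT, 5 in LOH and 4 in all kept cells (2.2%, 4.72%, 1.62% and 1.2% of the genes to which it gave an adjusted p). It called 1 in LOH for AKI-CKD against Control (0.848% of such genes). Without the filter on low counts, edgeR called 3 in LOH (2.06% of all genes). With each mouse left out, the called members for EGT against AKI-CKD ranged from 0 to 10 in DCT and from 0 to 5 in LOH cells, the highest without AKI-CKD + EGT mouse 1, where 2.17% and 3.72% of all genes were called. The median ranged from -0.60 to -0.34 in DCT and from -0.56 to -0.33 in all kept cells for that comparison, and from -0.28 to -0.026 in DCT for AKI-CKD + EGT against Control. The cause was not tested.

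The replicate numbers did not pair the mice: of 9 same-number pairs of mice, 1 in PT, 3 in DCT, 0 in LOH and 2 in all kept cells deviated together with a correlation over 0.1 (range over the 4 populations -0.46 to 0.37, against -0.41 to 0.47 for other numbers). With the replicate block edgeR called 0 members in any comparison, and of all genes 6 in LOH for EGT against AKI-CKD, 1 in LOH for AKI-CKD against Control and 0 elsewhere.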
